A study of Mus musculus with 4 samples.

Results

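Fibroblast growth factor (FGF) signalling was followed through 6 genes chosen by name for their roles in cartilage, out of 24421 genes in the count table: the receptors Fgfr1, Fgfr2 and Fgfr3 and the ligands Fgf1, Fgf2 and Fgf18. All 6 were present in the table. The RNA came from superficial-zone cartilage of the medial femoral condyle of 2 C57BL/6J mice, named M04 and M05, at 8 weeks after surgery. Every animal contributed 2 libraries, 1 from a knee given sham surgery and 1 from a knee whose medial meniscus had been destabilized (DMM), a model of osteoarthritis through joint instability. The 4 libraries are called M04 sham, M04 DMM, M05 sham and M05 DMM, each a single knee. Sample labels record a wild-type genotype for all 4, but the series' design text marks the M05 pair as knockout without naming a gene. M05 against M04 is therefore read as a comparison of 2 animals, in which a possible difference of genotype cannot be told apart from other differences between them. Group membership follows titles and treatment fields, although the free-text description of each sham sample speaks of a DMM knee. The animals' ages and sex are not stated.

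FGFs are secreted proteins that bind receptor tyrosine kinases together with heparan sulfate chains, and the active receptor signals through the adaptor FRS2 to the RAS and MAP kinase cascade. In cartilage FGFR3 is known as a brake on growth-plate proliferation and for protective effects in the adult joint, whereas FGFR1 is linked to catabolic responses. FGF18 is an anabolic ligand of chondrocytes, and FGF2 is stored in the matrix around chondrocytes, bound to the proteoglycan perlecan.

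Library totals ranged from 12712425 to 19336628 counts. The chondrocyte genes Col2a1 (type II collagen) and Acan (aggrecan) were present everywhere, at 726 to 3822 and 43.2 to 281 CPM (counts scaled to library size, here with the trimmed mean of M-values, TMM). Summed over 13 chondrocyte markers, M04 sham had 5232 CPM, M04 DMM 6132 CPM, M05 sham 1397 CPM and M05 DMM 4551 CPM, so that the sum was lowest in M05 sham. Blood and marrow transcripts were abundant, with 187439 to 319678 CPM for 7 erythroid markers and 37666 to 63643 CPM for 7 neutrophil markers. In such bulk samples fewer cells of a type and less RNA per cell cannot be told apart.

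The sequences upstream of Fgfr2 and Fgfr3 are shown because these receptors had log2 ratios of opposite sign between the knees of M04. In M05 both ratios were positive (0.11 for Fgfr2 and 0.84 for Fgfr3). This display was chosen after the values were seen. By symbol, 4 of the 6 genes (Fgfr2, Fgfr3, Fgf2 and Fgf18) were matched in the RefSeq promoter table of build GRCm38.p6, which is not the build of the counts. Each sequence is the 250 bases before an annotated start, and capitals mark the GC box bound by SP1-type factors (GGGCGG, or CCGCCC on the other strand). The Fgfr2 entry lies at chr7:130266809-130267058 on the minus strand, and the first of 2 Fgfr3 entries at chr5:33721474-33721723 on the plus strand.
Fgfr2: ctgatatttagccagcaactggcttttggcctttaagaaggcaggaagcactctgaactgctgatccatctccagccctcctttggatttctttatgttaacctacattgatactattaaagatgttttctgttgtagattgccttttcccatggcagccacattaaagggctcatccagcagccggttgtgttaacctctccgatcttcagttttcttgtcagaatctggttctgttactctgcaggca
Fgfr3: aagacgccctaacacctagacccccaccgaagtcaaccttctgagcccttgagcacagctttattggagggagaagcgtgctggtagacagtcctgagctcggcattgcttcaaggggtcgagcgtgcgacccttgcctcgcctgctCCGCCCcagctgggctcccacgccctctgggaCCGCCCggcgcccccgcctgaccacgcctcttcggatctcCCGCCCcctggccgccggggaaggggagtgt
The Fgfr3 sequence held 3 GC boxes and had a GC content of 66.8%. The Fgfr2 sequence held 0 and had a GC content of 44.0%. Of 32851 promoter windows of the same length, 32.7% held at least 1 such box, and their median GC content was 52.4%. These matches describe letters in the windows, not binding.

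Per unit of transcript length, Fgfr1 was the most abundant of the 6 genes in all 4 libraries, at 5.68 to 9.30 of the authors' FPKM, which are scaled for length and depth. Fgfr2 was at 2.24 to 3.63 FPKM and Fgfr3 at 1.33 to 2.75 FPKM, and these ranges overlapped. Fgfr3 stood above Fgfr2 in M04 sham (2.75 against 2.39 FPKM) and below it in the other 3 libraries. Fgf1, a ligand of all FGF receptors, followed at 0.956 to 1.19 FPKM, under the lowest Fgfr3 value. Fgf2 (0.119 to 0.543 FPKM) and Fgf18 (0 to 0.501 FPKM) were lowest, and their ranges overlapped too.

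**Figure D1:**
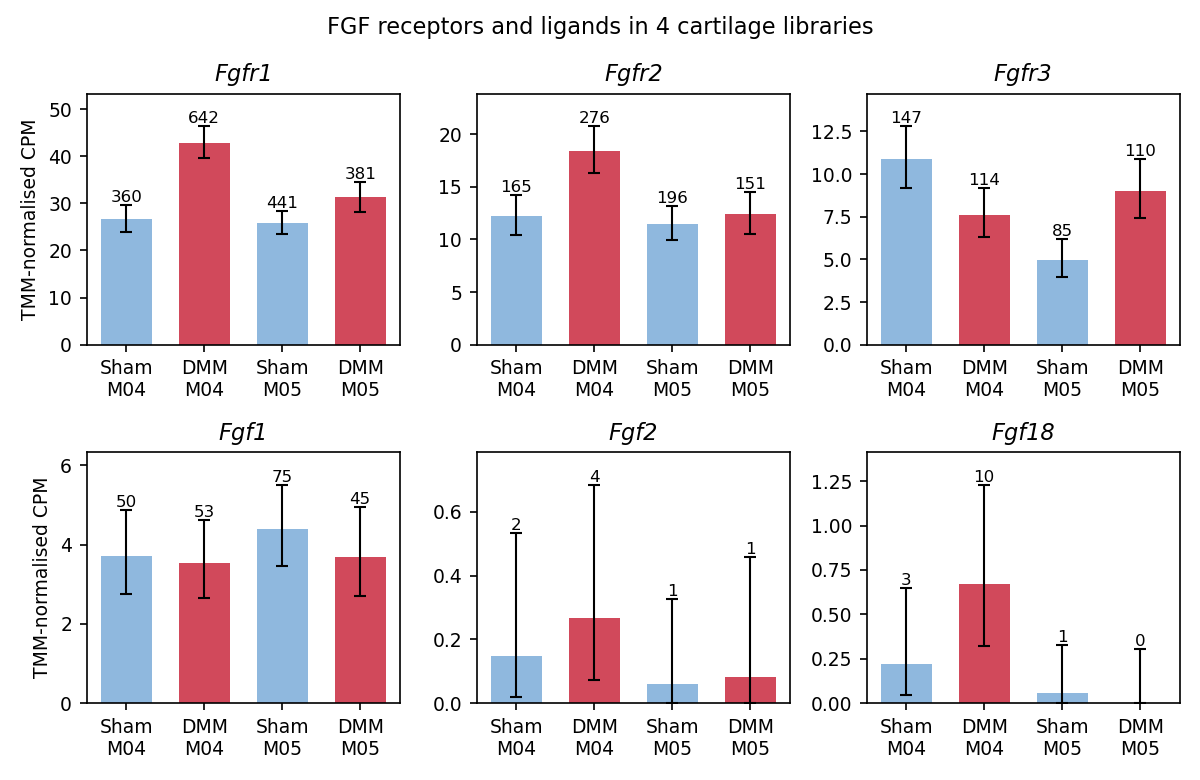
TMM-normalised CPM (y axis, from 0, on a separate scale for each gene) of the 3 receptors and 3 ligands in the sham and DMM libraries of M04 and M05. Numbers give the counts and bars the exact 95% Poisson interval, which covers counting error only. Both DMM libraries stand above both sham libraries for Fgfr1 and, by a narrow margin, for Fgfr2, an order found for 13.2% of genes tested. Fgfr3 is highest in M04 sham (10.9 CPM) and lowest in M05 sham (4.98 CPM).

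Fgfr1, the receptor linked to catabolic signalling, had 360 counts in M04 sham, 642 in M04 DMM, 441 in M05 sham and 381 in M05 DMM. Scaled for depth, these were 26.7, 42.9, 25.9 and 31.3 CPM. The sham values lay close together, both DMM values lay above them, and M04 DMM was the highest. Among the 13103 genes tested, 13.2% had both DMM libraries above both sham libraries. The DMM to sham log2 ratio was 0.68 within M04 (95% exact interval 0.50 to 0.88) and 0.27 within M05 (0.07 to 0.48). Such intervals cover counting error only. With mouse as a block, Fgfr1 had a log2 fold change of 0.48 (SE 0.18), which did not pass (edgeR quasi-likelihood test, unadjusted p = 0.0071, adjusted p = 0.42). In fits without the mouse term it was 0.26 without M04 DMM and 0.70 without M05 DMM.

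Fgfr2, whose isoforms act in mesenchymal cells such as osteoblasts and in epithelia, had 165, 276, 196 and 151 counts in M04 sham, M04 DMM, M05 sham and M05 DMM. These were 12.2, 18.5, 11.5 and 12.4 CPM. M04 DMM stood apart and the other 3 libraries were close together. Both DMM values were above both sham values, M05 DMM by a narrow margin (12.4 against 12.2 CPM in M04 sham). Such an order was found for 13.2% of genes tested. The log2 ratio was 0.59 within M04 (0.31 to 0.88) and 0.11 within M05 (-0.21 to 0.42), and the interval for M05 includes 0. The fitted log2 fold change of 0.36 (SE 0.24) did not pass (edgeR, adjusted p = 1.0). Leaving out 1 library, in fits without the mouse term, gave 0.069 (without M04 DMM) to 0.63 (without M05 DMM).

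Fgfr3, the receptor with protective effects in cartilage, had 147 counts in M04 sham, 114 in M04 DMM, 85 in M05 sham and 110 in M05 DMM. Scaled for depth, these were 10.9, 7.62, 4.98 and 9.03 CPM. The sham libraries held both the highest and the lowest level, with the DMM libraries between them. The log2 ratio was -0.51 within M04 (-0.88 to -0.15) and 0.84 within M05 (0.44 to 1.28). The signs differed and the counting intervals did not overlap, but the difference between the mice was not tested, because a model with that interaction leaves no residual degree of freedom. Ratios of opposite sign in the 2 mice were found for 52.9% of all genes tested. The share of genes whose counting intervals did not overlap was not computed. Over both mice the log2 fold change was 0.15 (SE 0.31, edgeR adjusted p = 1.0). In fits without the mouse term it was -0.39 without M05 sham, -0.05 without M05 DMM, 0.74 without M04 sham and 0.20 without M04 DMM.

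Of the 6 genes, 4 passed the filter on low counts, and Fgf2 and Fgf18 did not. None of the 4 was past an adjusted p of 0.05 for DMM against sham by edgeR or by DESeq2, and 1, Fgfr1, had an unadjusted edgeR p under 0.05. Of all genes tested, 0.649% passed the adjusted threshold by edgeR and 5.2% had an unadjusted p under 0.05.

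**Figure D2:**
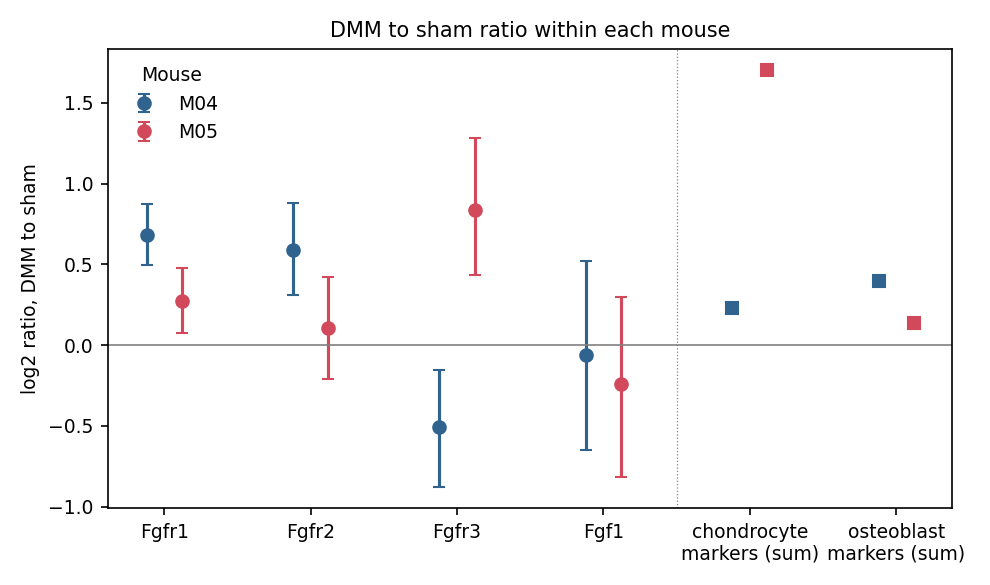
Log2 ratio of DMM to sham (y axis) within M04 and within M05 for the 4 genes that passed the filter (circles, with exact 95% counting intervals) and for the summed CPM of 13 chondrocyte and 9 osteoblast and osteocyte markers (squares). Fgfr1 and Fgfr2 have the larger ratio in M04 (0.68 and 0.59), whereas Fgfr3 is at -0.51 in M04 and 0.84 in M05, and the chondrocyte sum at 0.23 and 1.70.

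Fgfr3 was also set against the chondrocyte markers of the libraries, which can themselves differ with the operation. All 13 chondrocyte markers had a positive DMM to sham log2 ratio in each mouse, from 0.02 to 0.57 in M04 and from 0.83 to 2.11 in M05. The ratio of Fgfr3 lay below those of all 13 markers in M04 and of all but 1 in M05. Relative to the summed markers, the Fgfr3 log2 ratio was -0.74 in M04 (-1.11 to -0.38) and -0.85 in M05 (-1.27 to -0.42), negative in both mice. The intervals cover counting error of Fgfr3 only and take the marker sum as fixed. A ratio below that of the marker sum was found for 74.6% of all genes tested in M04, for 99.1% in M05 and for 74.2% in both. With Col2a1 left out of the sum the Fgfr3 values were -0.80 and -0.58, and with the geometric mean of the markers -0.87 and -0.61. Relative to the summed markers Fgfr1 was at 0.46 in M04 and -1.43 in M05, Fgfr2 at 0.37 and -1.59, and Fgf1 at -0.29 and -1.95. These values have no test, since each mouse gave 1 library per knee.

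Other cell types also varied beside the receptors. Of the 13 chondrocyte markers, 7 were higher in DMM by edgeR, a call made for 0.633% of all genes, and none was lower, against 0.0153%. Their summed log2 ratio was 0.23 in M04 and 1.70 in M05, where the sham library had the lowest sum (1397 CPM). In the fit of all libraries without the mouse term, 0 genes were called. Osteoblast and osteocyte markers had a summed log2 ratio of 0.40 in M04 and 0.14 in M05, and 2 of the 9 were higher in DMM. Not all followed the sum in M05. There Phex (4.40 to 1.64 CPM), Sost (7.62 to 3.04 CPM) and Mepe (17.2 to 14.0 CPM) were lower in DMM, and the rest were not. The first 2 of this list were Bglap, the osteocalcin gene, at 639 to 850 CPM and Ibsp, the bone sialoprotein gene, at 258 to 465 CPM. Skeletal muscle markers summed to 143, 378, 478 and 149 CPM in M04 sham, M04 DMM, M05 sham and M05 DMM, the reverse of the Fgfr3 order. That match was seen among 10 marker lists after the values were known. How many genes share the order was not computed. The 7 fibroblast markers summed to 67.0 to 73.3 CPM, with Thy1 at 8.09 to 14.9 CPM and Pdgfra at 11.8 to 12.7 CPM. Of these 7, 5 were tested, and 1 of the 5 (Clec3b) was higher in DMM, beside 0.633% of all genes. Scx and Tnmd were at 0 in M04 sham, and these 3 genes were named after their values were seen. Summed endothelial markers had log2 ratios of -0.17 and 0.25 in M04 and M05, and summed adipocyte markers of 0.45 and -0.31. The endothelial members did not move together. In M05, Vwf (126 to 158 CPM) and Pecam1 (44.6 to 58.8 CPM) were higher in DMM, whereas Cdh5, Kdr, Emcn and Tek were lower. The part of these cells in the receptor values was not tested.

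The balance of the 3 receptors inside a library does not depend on how libraries are scaled. Fgfr1 made up 53.6% of the receptor counts in M04 sham (95% Wilson interval 49.8 to 57.3), 62.2% in M04 DMM (59.2 to 65.1), 61.1% in M05 sham (57.5 to 64.6) and 59.3% in M05 DMM (55.5 to 63.1). Fgfr2 contributed 24.6%, 26.7%, 27.1% and 23.5% in that order. Fgfr3 contributed 21.9% in M04 sham (18.9 to 25.2), 11.0% in M04 DMM (9.28 to 13.1), 11.8% in M05 sham (9.62 to 14.3) and 17.1% in M05 DMM (14.4 to 20.2). The Fgfr3 share was thus lower in the DMM knee of M04 and higher in that of M05, and in each mouse the intervals of the 2 knees did not overlap. These intervals cover counting error only, and the knees differed by more than that across all genes. Chi-square per degree of freedom was 14.3 between the knees of M04 and 36.8 between those of M05. How often other genes show such a gap was not computed. Shares of counts also depend on transcript length. As a share of the summed FPKM, Fgfr3 was at 25.3% in M04 sham, 13.0% in M04 DMM, 14.4% in M05 sham and 20.4% in M05 DMM. Except in M04 DMM, these lay above the intervals of the count shares, with the same direction between the knees of each mouse. As ratios of FPKM, Fgfr1 stood 2.08, 4.79, 4.28 and 2.85 times above Fgfr3 in M04 sham, M04 DMM, M05 sham and M05 DMM.

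**Figure D3:**
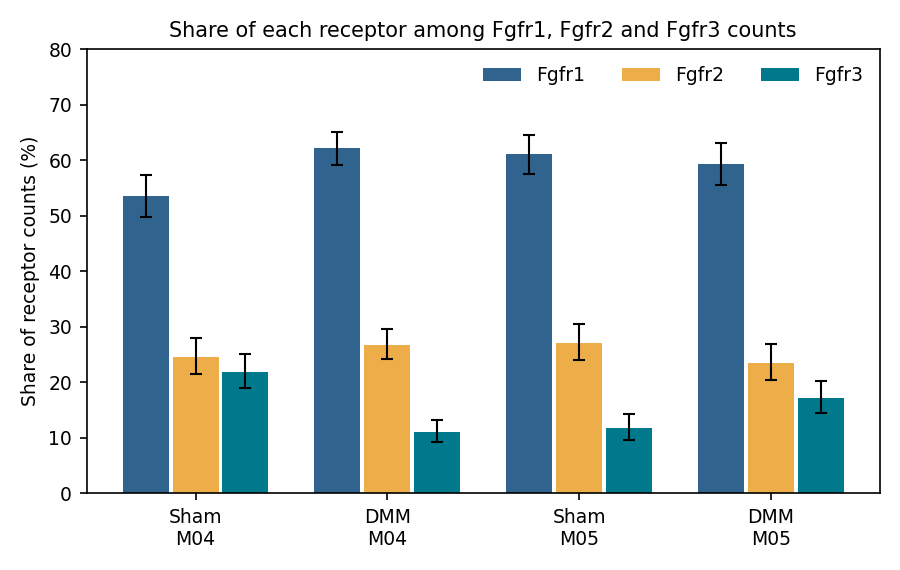
Share of Fgfr1, Fgfr2 and Fgfr3 (y axis, percent, from 0) among the summed counts of the 3 receptors in each library, with 95% Wilson intervals for counting error. Fgfr1 holds 53.6% to 62.2%, Fgfr2 stays between 23.5% and 27.1%, and Fgfr3 ranges from 11.0% to 21.9%.

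Of the ligands, Fgf1 was counted at a similar level in all libraries, with 50, 53, 75 and 45 counts in M04 sham, M04 DMM, M05 sham and M05 DMM. These were 3.70, 3.54, 4.40 and 3.69 CPM. Both DMM values were below both sham values by a narrow margin, an order found for 12.3% of genes tested. The log2 ratio was -0.06 within M04 (-0.65 to 0.52) and -0.24 within M05 (-0.82 to 0.30), and both intervals include 0. The fold change of -0.16 on the log2 scale (SE 0.43) did not pass (edgeR, adjusted p = 1.0).

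Fgf2, the matrix-bound ligand, had 2, 4, 1 and 1 counts in M04 sham, M04 DMM, M05 sham and M05 DMM. Nudt6, which overlaps Fgf2 on the opposite strand, had 29, 43, 56 and 23 counts. Since no source used here states whether counting used strand, reads of the 2 genes in the shared stretch cannot be told apart. Fgf18, the anabolic ligand, had 3, 10, 1 and 0 counts, and the count of 0 in M05 DMM allows up to 3 counts, or 0.246 CPM, as a one-sided limit. The wider two-sided interval drawn in the plot of CPM by library reaches 0.303 CPM. Within M04 the interval of the log2 ratio ran from -0.37 to 4.09 for Fgf18 and from -1.95 to 4.32 for Fgf2. A difference between knees was not detectable for either ligand at this depth.

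The second comparison set M05 against M04. The log2 fold change was -0.25 (SE 0.18) for Fgfr1, -0.33 (SE 0.24) for Fgfr2, -0.44 (SE 0.31) for Fgfr3 and 0.16 (SE 0.43) for Fgf1. None of these 4 genes passed, with adjusted p-values by edgeR of 0.57, 0.57, 0.56 and 0.93 in that order. None had an unadjusted p under 0.05 by edgeR with TMM or by DESeq2, which gave no adjusted p for them. Of all genes tested 2.6% passed and 14.3% had an unadjusted p under 0.05. Leaving out 1 library, in fits with the mouse alone, gave -0.58 (without M04 sham) to 0.092 (without M04 DMM) for Fgfr1, -0.62 to -0.039 with the same libraries left out for Fgfr2, and -0.89 (without M05 DMM) to -0.031 (without M05 sham) for Fgfr3. With plain library totals, which lower the median of all genes by 0.24 on the log2 scale in this comparison, Fgfr1 was at -0.49, Fgfr2 at -0.57 and Fgfr3 at -0.68, with unadjusted p of 0.0090, 0.020 and 0.045 by edgeR and none past the adjusted threshold. In the TMM fit 9 of the 13 chondrocyte markers were lower in M05, against 1.64% of all genes, and none was higher, against 0.962%.

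The wider pathway was taken as 84 genes in 8 lists, of which 52 passed the filter and 13 had no count in any library. For DMM against sham none of the 52 passed by edgeR or DESeq2, and 4 had an unadjusted edgeR p under 0.05. Over all genes tested these shares were 0.649% and 5.2%. The median log2 fold change of the 52 was 0.00, beside -0.01 for all genes tested. For M05 against M04, 2 of the 52 were lower and none was higher by edgeR, against 1.64% and 0.962% of all genes, and 11 had an unadjusted p under 0.05, against 14.3% of all genes. The median was -0.22, beside -0.01 for all genes.

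Both lower genes encode heparan sulfate proteoglycans, out of 9 tested genes of FGF-binding proteins and proteoglycans, beside 1.64% of lower calls over all genes tested. Hspg2, which encodes perlecan, had 78.6, 71.5, 24.9 and 42.3 CPM in M04 sham, M04 DMM, M05 sham and M05 DMM. Both M05 libraries were below both M04 libraries, as for 22.8% of genes tested, and the log2 fold change was -1.20 (SE 0.17, edgeR adjusted p = 1.36e-09). Sdc4, which encodes the cell-surface proteoglycan syndecan-4, had 21.9, 31.2, 13.6 and 13.6 CPM. Its log2 fold change was -0.94 (SE 0.21, edgeR adjusted p = 0.0011). DESeq2 called Hspg2 and gave no adjusted p for Sdc4. In a fit with the mouse but not the operation, neither call was kept, with edgeR adjusted p = 0.098 for Hspg2 and 0.11 for Sdc4. Leaving out 1 library from that fit gave -0.83 (without M05 sham) to -1.59 (without M05 DMM) for Hspg2, with -1.08 without M04 sham and -1.24 without M04 DMM. For Sdc4 it gave -0.69 (without M04 DMM) to -1.18 (without M04 sham). The lower values of both genes stand beside the lower chondrocyte markers of M05, whose part was not tested. Sdc3 (123 to 171 CPM) and Gpc1, the glypican-1 gene (65.2 to 108 CPM), had log2 fold changes of -0.31 and -0.48 for M05 against M04 and did not pass.

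**Figure D4:**
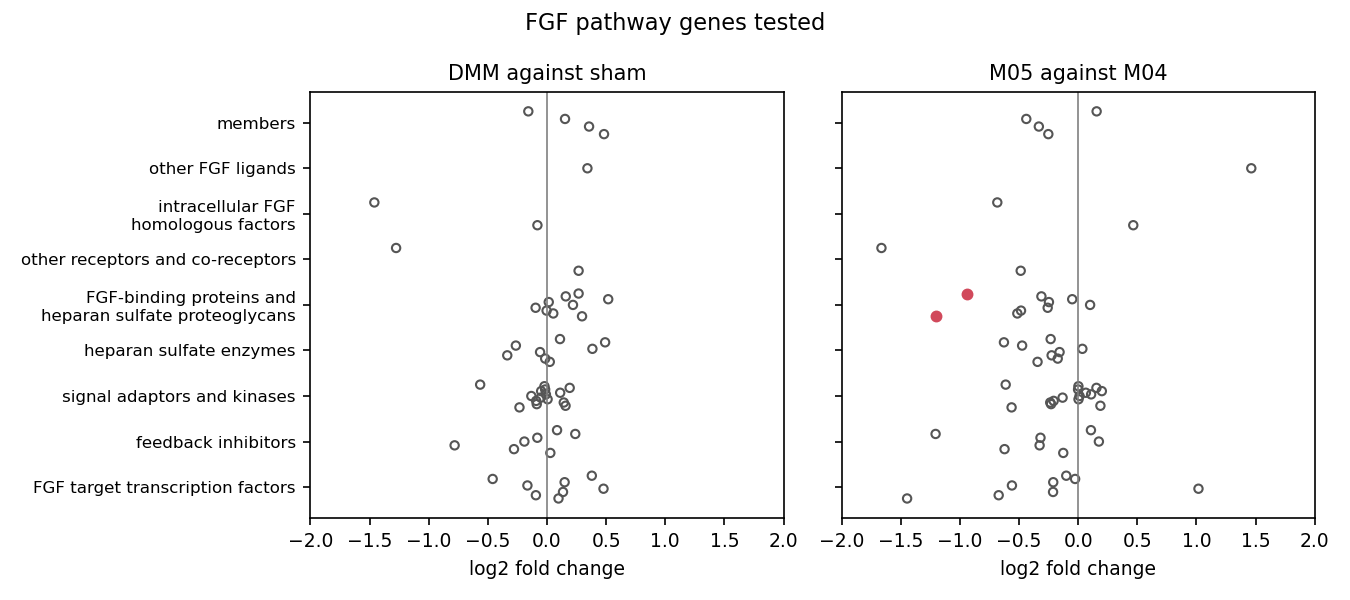
Log2 fold changes (x axis) of the 4 tested genes of the set and of the tested genes of 8 FGF pathway lists (rows), for DMM against sham on the left and M05 against M04 on the right. Filled red points passed an adjusted p of 0.05 by edgeR; these are Hspg2 (-1.20) and Sdc4 (-0.94) on the right, and none on the left.

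Other ligands were scarce. Of 15 further FGF genes, 10 had no count in any library, and 1 passed the filter. This was Fgf7, a mesenchymal ligand of an Fgfr2 isoform, with 7, 18, 43 and 25 counts in M04 sham, M04 DMM, M05 sham and M05 DMM. Its log2 fold change for DMM against sham was 0.34 (SE 0.70) and did not pass. In the same order of libraries, Fgf9, a developmental ligand of Fgfr3, had 1, 4, 8 and 8 counts and Fgf3 had 5, 2, 20 and 2. Fgf23, the phosphate-regulating hormone of osteocytes, had 1, 2, 1 and 0. Among FGF homologous factors, which stay inside the cell, Fgf13 had 19, 20, 37 and 2 counts and Fgf11 had 11, 12, 20 and 13. Fgf14 was counted in M05 sham alone (10 counts) and Fgf12 in M04 DMM alone (1 count).

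Of 7 further receptors and co-receptors 2 passed the filter, and neither was called in either comparison. Fgfrl1, a receptor-like protein without a kinase domain, was the most abundant at 10.7 to 18.1 CPM, with a log2 fold change of 0.27 (SE 0.23) for DMM against sham and -0.49 (SE 0.23) for M05 against M04. Flrt2, a membrane protein that can associate with FGF receptors, was at 4.59, 2.67, 2.05 and 0.493 CPM in M04 sham, M04 DMM, M05 sham and M05 DMM. Its log2 fold change for DMM against sham was -1.28 (SE 0.57, edgeR adjusted p = 0.77). Fgfr4 had 7, 2, 1 and 0 counts and Flrt3 had 0, 0, 6 and 1.

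None of the downstream genes passed for DMM against sham. Among the most abundant of 15 tested adaptors and kinases were the kinase gene Mapk3 at 163 to 218 CPM, the MAP kinase kinase gene Map2k2 at 114 to 145 CPM and the adaptor gene Grb2 at 100.4 to 128 CPM. For DMM against sham the log2 fold change was 0.19 for Mapk3, -0.05 for Map2k2 and 0.16 for Grb2, and the median of the 15 was -0.02. Of 7 tested feedback inhibitors, a class that FGF signalling induces, the MAP kinase phosphatase gene Dusp6 was at 19.0 to 21.8 CPM with a log2 fold change of 0.09 (SE 0.20). Spred1 (-0.19, SE 0.27), Spry1 (0.03, SE 0.35) and Spry2 (-0.28, SE 0.41) did not pass either. Of 8 tested target genes, the cell-cycle inhibitor Cdkn1a was at 0.38 (SE 0.19, edgeR adjusted p = 0.94), with 0.43 within M04 and 0.33 within M05. Myc was at -0.17, Ccnd1 at 0.15 and Egr1 at 0.14. Of 8 tested heparan sulfate enzymes, the sulfotransferase gene Hs6st1 had 89.3, 62.8, 54.2 and 53.8 CPM in M04 sham, M04 DMM, M05 sham and M05 DMM, a log2 fold change of -0.26 (SE 0.16). Ext2 was at -0.02, Sulf2 at 0.11 and Ndst1 at -0.34.

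The nearest expression patterns were sought for each receptor by the Euclidean distance of log2 CPM, centred over the 4 libraries, across 9455 genes averaging 5 CPM or more. For Fgfr1 these were Tnfrsf11b, the gene of osteoprotegerin (distance 0.06), Slc2a1, the gene of glucose transporter GLUT1 (0.09), and Ppic (0.09). For Fgfr2 they were Lynx1 (0.04), Itga11, an integrin chain that binds collagen (0.04), and Bhlhe41 (0.08). For Fgfr3 they were Zfp142 (0.14), Layn, a hyaluronan receptor (0.15), and Vwa8 (0.16). The median distance to all genes compared was 0.69 for Fgfr1, 0.65 for Fgfr2 and 0.89 for Fgfr3. With 4 points many genes lie near, and 93, 129 and 19 genes were within 0.25 of Fgfr1, Fgfr2 and Fgfr3.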

How the data were processed

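Poly(A) RNA was sequenced as single-end reads of 100 bases, per the labels' protocols. The authors deposited estimated counts per gene, of which 9.21% to 10.9% per library were not whole, and FPKM values. The build was GRCm39 (mm39) according to the submitters' processing notes. Aligner, counter, annotation and strand setting are not stated. The count table's 4 further columns equalled the first 4 in all rows and were not used.

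Counts were rounded and filtered with filterByExpr (13103 genes kept), scaled by TMM and tested in edgeR 4.0.16 under R 4.3.3 by a robust quasi-likelihood model with mouse and operation as terms, with Benjamini-Hochberg adjustment over all genes and a threshold of 0.05. SE is the size of the log2 fold change over the square root of F. The labels place both knees in 1 animal, hence the block (same-mouse deviations correlated at 0.13). There was 1 residual degree of freedom, and for 83.0% of genes the spread came from the trend across genes. The script was tested on simulated data with the same spread for all genes and no difference between mice, which is simpler than these libraries. For DMM against sham it recovered 68 of 89 genes changed by 1 on the log2 scale and 106 of 111 changed by 2. There were 16 false calls. No library pair agreed within sampling noise (chi-square per degree of freedom 14.3 to 60.3). Ratios within a mouse used log2 CPM with a prior count of 2. Alternatives used DESeq2 1.42.0 and limma 3.58.1.

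The members and lists were chosen with earlier results of these data known. Named genes were the 6 members, in each pathway list those past the threshold and then the highest by mean CPM up to 4, the first 2 of a marker list, and the 3 nearest patterns of members averaging 5 CPM or more. Further marker genes were named after their values were seen. All 156 list genes were found, 1 of them by a synonym. A gene that this rule names in the list of adaptors and kinases is not reported here.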

Additional observations from a re-analysis of the deposited data

Results flagged for a closer look

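Fgfr3 had a DMM to sham log2 ratio of -0.51 in M04 and 0.84 in M05, so the knees of the 2 mice differed in opposite directions. The difference was not tested, since each mouse gave 1 library per knee, and 52.9% of all genes tested had ratios of opposite sign. The summed chondrocyte markers had log2 ratios of 0.23 and 1.70 in the same mice, and their part in the Fgfr3 values was not tested.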

How the results depend on the processing

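By edgeR, 83 genes were higher and 2 lower in DMM, and 126 were higher and 215 lower in M05. None of the 4 tested members was called under an alternative that gave it an adjusted p. Fgf1 was not tested at a mean of at least 5 CPM, and DESeq2 gave no adjusted p to the 4 for M05 against M04. Without the replicate block (for M05 against M04, without the operation term) 0 genes were called in either comparison, with 322 and 1819 at an unadjusted p under 0.05; limma on log2(FPKM + 1) and on log2(FPKM + 0.1) also called 0, with 530 and 474 at an unadjusted p under 0.05 for DMM against sham and 1096 and 1062 for M05 against M04. Higher and lower calls in DMM were 35 and 0 with DESeq2 size factors, 53 and 0 with library totals, 13 and 0 with the DESeq2 Wald test, and 23 and 0 without haemoglobin rows. There was 1 lower call with no filter and 4 with a mean of at least 5 CPM. For M05 the corresponding calls were 62 and 124, 21 and 891, 33 and 24, and 36 and 75. Library totals moved the median of all genes by 0.11 for DMM against sham and by -0.24 for M05 against M04. Leave-one-out fits had no mouse block, and the lone sample of a group was assumed to vary like the others. They gave 0 to 95 higher and 0 to 26 lower calls in DMM, and 0 to 200 higher and 0 to 131 lower calls in M05.

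Over those fits the log2 fold change for DMM against sham ran from 0.26 to 0.70 for Fgfr1 and from -0.39 (without M05 sham) to 0.74 (without M04 sham) for Fgfr3, which was also at -0.05 without M05 DMM. For M05 against M04, Fgfr1 ran from -0.58 to 0.092 (without M04 DMM), and the cause was not tested. Fgf1 was at -0.085 with library totals, which is its value of 0.16 moved by the -0.24 that this scaling gives the median of all genes. Fgfr2 ran from 0.069 to 0.63 for DMM against sham and from -0.62 to -0.039 for M05 against M04, and Fgfr3 from -0.89 to -0.031 for M05 against M04. Without the replicate block Fgfr1 was at 0.50 and Fgfr3 at 0.08 for DMM against sham. With 1 to 10 counts in the libraries where they were seen, Fgf2 and Fgf18 were limited by depth.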
